A study of Mus musculus with 10 samples.

Results

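The genes described here make cholesterol and fatty acids or control their making. A list of 34 genes was taken by name from the 18194 genes that the deposited table names, and each gene was represented by its probe set with the highest mean over all 10 arrays. The list held 18 sterol genes (the enzymes from HMG-CoA to cholesterol and the sterol carrier Stard4), 5 regulators of the sterol regulatory element binding proteins (SREBPs), and 11 genes of fatty acid synthesis and desaturation. Of the 34 genes, 33 were bright enough to test. The 1 that was not is Mvd, the decarboxylase that ends the mevalonate steps, whose level lay at 2.60 to 2.62 on the mutant arrays and at 2.57 to 2.61 on the wild-type arrays (log2), below every array's median.

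Aortas came from male NPAS2 mutant mice on a C57Bl/6J background (5 arrays) and from male wild-type C57Bl/6 mice (5 arrays), both labelled ZT14. The strain labels of the groups are not identical, and a substrain difference, if there is any, cannot be told apart from genotype. All mice had at least 2 weeks of 12 h light and 12 h dark and spent 30 h or more in constant darkness before they were killed, so the mutant and wild-type groups share that regime. The labels give neither the allele nor the age of the mice, and the sample notes say thoracic aorta where the extraction notes describe a vessel cut from the arch to beyond the femoral bifurcation. RNA was read on Affymetrix MOE 430V2 chips, which carry probes for most mouse genes, and levels are the deposited log2 values. The labels do not say whether an array is 1 animal, so p-values reflect only how far these arrays vary.

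Cholesterol is built from acetyl-CoA through mevalonate, squalene and lanosterol, and fatty acids are built from the same acetyl-CoA by carboxylation, chain assembly and desaturation. When membrane sterol is low, Scap carries SREBP proteins out of the endoplasmic reticulum to be cut and activated, while Insig proteins hold them back. Srebf2 favours sterol genes and Srebf1 fatty acid genes. In fat, lipogenic enzymes also follow the carbohydrate-sensing factor encoded by Mlxipl (ChREBP) and are induced by feeding and insulin. NPAS2 is a clock transcription factor that pairs with BMAL1 and binds the E-box CACGTG.

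Of 22340 probe sets tested, 48 were called at an adjusted p of 0.05 by limma with Benjamini-Hochberg adjustment, which is 0.215% of those tested. They split into 21 higher and 27 lower in the mutant, and into 34 higher of 52 when each array was centred on its median over tested probe sets, an alternative chosen after seeing the data. Npas2 itself was dim and gives little check of the genotype labels. Its tested probe set read 3.38 to 3.47 in the mutant and 3.44 to 3.96 in wild type (change -0.28, limma adjusted p = 0.249). Smooth muscle markers were among the bright signals, with Acta2 at 14.38 ± 0.06 in the mutant and 14.42 ± 0.10 in wild type (SD, n = 5 each) and Tagln at 13.71 ± 0.10 in the mutant and 13.76 ± 0.12 in wild type, while 0 of the 4 hepatocyte markers with a probe set were bright enough to test (highest level of any, 3.24). Fat was present on every array. Adipoq, the adipocyte hormone adiponectin, read 13.08, 13.20, 12.99, 12.92 and 13.09 in mutant F12, F13, F18, F19 and F20, against 12.74, 13.08, 12.80, 12.97 and 13.17 in wild type F11, F14_2, F15, F16 and F17. Ucp1, the uncoupling protein of brown fat, read 12.81, 12.33, 12.02, 12.50 and 12.41 in the same mutant arrays, against 12.09, 11.25, 11.48, 11.62 and 10.66 in the same wild-type arrays.

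No member was called: 0 of 33 tested passed the adjusted threshold of 0.05, against 0.215% of all tested probe sets. At an unadjusted limma p of 0.05, 2 members were higher in the mutant (Mlxipl and Hmgcs1), where 5.21% of the 10943 tested genes were higher, and 3 were lower (Fads2, Fads1 and Scap), where 9.83% of tested genes were lower. The groups did not overlap for Fads2 and Scap, both lower in the mutant, where 2.39% of tested genes were separated in that direction. No member was separated with the mutant higher, where 1.82% of tested genes were. The counts at the unadjusted p lie near the share over all genes and are no result about the list, and 2 separated members are too few to read against theirs. The median change was 0.06 over the 17 tested sterol genes (11 with a higher and 6 with a lower mean in the mutant), -0.003 over the 5 regulators (2 and 3) and -0.07 over the 11 fatty acid genes (4 and 7), beside -0.02 over all tested genes. Without wild type F15 the fatty acid median was 0.15, and without wild type F17 it was -0.28.

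**Figure D1:**
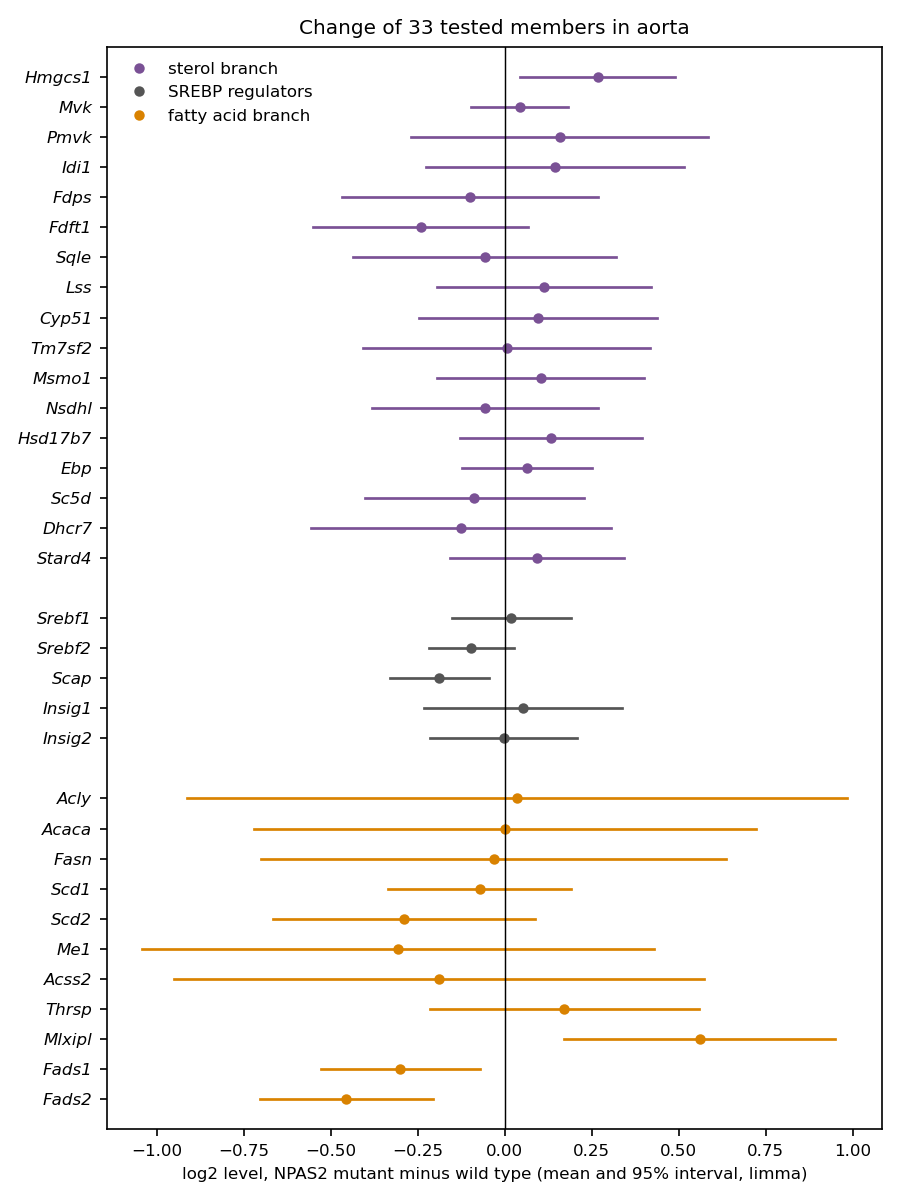
Change of each of the 33 tested members on the log2 scale, NPAS2 mutant minus wild type, as the limma estimate with its 95% interval (5 arrays a group), grouped by branch. Intervals of Fads2, Fads1, Scap, Hmgcs1 and Mlxipl leave out 0 before adjustment, none of the 33 was called after it, and the intervals of Acly, Acaca, Fasn, Me1 and Acss2 are the widest drawn.

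Stretches before the transcription start are shown for 6 members on which the account turns: Hmgcs1, Mlxipl, Scap and Fads2, which had the changes named above, and Fasn and Acss2, which varied together between arrays. The RefSeq promoter table of GRCm38.p6 held 27 of the 34 members, leaving 7 without an entry, and the motif search used 300 bases, from 250 before to 50 after each start, on both strands, counting a gene once if any of its windows matched. Of each window the last 150 bases before the start are printed, 5′ to 3′ on the gene's strand, with matches to CCAAT, the E-box CACGTG and the sterol regulatory core CACCCCAC in capitals, on either strand.
Hmgcs1 (chr13:119690201-119690350, plus strand): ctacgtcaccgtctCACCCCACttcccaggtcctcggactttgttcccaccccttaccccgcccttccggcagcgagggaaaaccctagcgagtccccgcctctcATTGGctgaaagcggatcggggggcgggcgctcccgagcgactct
Fasn (chr11:120824548-120824697, minus strand): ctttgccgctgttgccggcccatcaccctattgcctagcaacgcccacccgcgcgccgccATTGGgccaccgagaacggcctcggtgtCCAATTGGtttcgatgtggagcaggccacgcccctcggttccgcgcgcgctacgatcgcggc
Acss2 (chr2:155517893-155518042, plus strand): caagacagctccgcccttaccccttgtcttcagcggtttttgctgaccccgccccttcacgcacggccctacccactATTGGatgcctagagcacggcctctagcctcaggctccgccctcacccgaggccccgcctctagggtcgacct
Mlxipl (chr5:135089740-135089889, plus strand): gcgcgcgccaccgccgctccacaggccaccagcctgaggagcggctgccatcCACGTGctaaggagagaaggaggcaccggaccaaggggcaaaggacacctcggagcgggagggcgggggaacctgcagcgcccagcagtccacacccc
Scap (chr9:110333206-110333355, plus strand): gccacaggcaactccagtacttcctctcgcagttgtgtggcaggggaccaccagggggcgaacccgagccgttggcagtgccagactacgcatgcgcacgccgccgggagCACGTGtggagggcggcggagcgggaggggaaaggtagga
Fads2 (chr19:10101504-10101653, minus strand): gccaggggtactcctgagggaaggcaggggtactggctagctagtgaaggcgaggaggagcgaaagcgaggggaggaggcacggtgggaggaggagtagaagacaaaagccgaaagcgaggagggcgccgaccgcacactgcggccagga

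The letters CCAAT, the site of the general factor NF-Y, were present in 24 of the 27 members (14 of 14 sterol genes, 4 of 5 regulators and 6 of 8 fatty acid genes), beside 41.1% of the 27025 genes in the table. Counted by window, since some genes have several, 25 of the members' 37 windows held it, beside 37.4% of all windows. Fasn had 3 matches, their first bases 59, 62 and 90 before the start, the first 2 overlapping each other, and Acss2 had 1 at 73. The E-box was found in 6 of the 27 (Dhcr7, Hsd17b7, Sc5d, Insig1, Scap and Mlxipl), beside 8.09% of all genes. It lay 98 bases before the start printed for Mlxipl and 40 before that printed for Scap. Each of these genes has a further start, with no E-box in the 250 bases before it. For both genes the start printed was chosen because an E-box lies before it. The sterol regulatory core was found in 1 member, Hmgcs1, 136 bases before its start, beside 3.30% of all genes. Fads2 held none of the 3 motifs in its window. A match describes letters only, and no binding was measured.

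In the first steps of the sterol branch, Hmgcs1 was the member with the clearest difference. This enzyme condenses acetyl-CoA units into HMG-CoA. Its level was 10.20, 10.29, 9.93, 9.84 and 10.25 in mutant F12, F13, F18, F19 and F20, against 9.82, 9.69, 9.99, 9.77 and 9.90 in wild type F11, F14_2, F15, F16 and F17. Mutant F12, F13 and F20 lay above every wild-type array, and mutant F18 and F19 lay within the wild-type range. The change was 0.27 (95% interval 0.04 to 0.49, limma adjusted p = 0.251), and all 5 tested probe sets of the gene had a positive change, between 0.03 and 0.28. With the mean of the brown fat markers as a covariate, whose values do not overlap between the groups, the change was 0.09 (limma adjusted p = 0.922).

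The kinases Mvk and Pmvk and the isomerase Idi1, which lead from mevalonate to the isoprene unit, had changes of 0.04, 0.16 and 0.14. The mutant arrays lay close together for Pmvk, at 5.78 to 6.08, inside a wild-type range of 5.29 to 6.55. Idi1 likewise ran from 7.03 to 7.34 in the mutant, against 6.61 to 7.48 in wild type. Their limma adjusted p lay between 0.691 and 0.767, and the 95% interval of Idi1, -0.23 to 0.52, leaves a difference of either sign possible.

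Fdps and Fdft1, which join isoprene units into farnesyl diphosphate and squalene, both had lower means in the mutant. Fdft1 read 8.60, 9.06, 8.89, 8.67 and 8.78 in the mutant, against 8.69, 9.47, 9.14, 8.90 and 9.01 in wild type, a change of -0.24 (95% interval -0.55 to 0.07, limma adjusted p = 0.422). The groups overlap, and wild type F14_2, which was low for most sterol genes, was the highest array here. A further tested probe set of Fdft1 had a change of -0.21. Fdps had a change of -0.10 and ran from 5.40 to 6.09 in the mutant and from 5.49 to 6.29 in wild type.

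Sqle and Lss, which oxidise squalene and close it into lanosterol, had changes of -0.06 and 0.11. The 2 tested probe sets of Lss disagreed in sign, at 0.11 and -0.26 (limma adjusted p = 0.709 and 0.535), so its direction is not settled. Lss showed a narrow mutant range of 5.31 to 5.52 inside a wild-type range of 4.88 to 5.74.

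After lanosterol, 8 enzymes trim and rearrange the sterol. Cyp51, the lanosterol demethylase, had a change of 0.09 (95% interval -0.25 to 0.44). Msmo1 and Nsdhl, which remove methyl groups with it, had changes of 0.10 and -0.06, and a further probe set of Msmo1 stood at -0.12. Hsd17b7, the ketosteroid reductase of the pathway, and Ebp, the sterol isomerase, had changes of 0.13 and 0.06. The Hsd17b7 signal was dim, at 3.60 to 3.92 in the mutant and 3.30 to 3.82 in wild type, near the array medians of 3.14 to 3.20. Its other probe sets were too dim to test. Tm7sf2, a sterol reductase, had a change of 0.005, Sc5d, the lathosterol oxidase, one of -0.09 on its chosen probe set and 0.06 on another, and Dhcr7, the reductase of the last step, one of -0.13. Limma adjusted p of these 8 genes ranged from 0.595 for Hsd17b7 to 0.992 for Tm7sf2, with overlapping groups for each.

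Stard4, a soluble carrier that moves cholesterol between membranes, was measured by 3 tested probe sets that disagreed. The chosen probe set read 5.13, 4.64, 5.04, 5.05 and 5.02 in the mutant, against 4.90, 4.56, 5.04, 4.89 and 5.02 in wild type, a change of 0.09 (limma adjusted p = 0.708). The other two had changes of -0.29 and -0.22 (limma adjusted p = 0.402 and 0.347). The groups overlap on the chosen probe set, and no direction can be given for the gene.

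Of the regulators, Scap, the sterol sensor that escorts SREBPs, was the one with separated groups. Its level was 7.23, 7.21, 7.23, 7.21 and 7.02 in mutant F12, F13, F18, F19 and F20, against 7.47, 7.27, 7.30, 7.33 and 7.46 in wild type F11, F14_2, F15, F16 and F17. Every mutant array lay below every wild-type array, with a gap of 0.04 between the groups. The change was -0.19 (95% interval -0.33 to -0.04, limma adjusted p = 0.215). Mutant F20 was the lowest, and without it the change was -0.15 (adjusted p = 0.382).

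Srebf1 and Srebf2 encode the SREBP precursors. Srebf2 read 5.99 to 6.20 in the mutant and 6.09 to 6.21 in wild type, a change of -0.10 with 95% limits of -0.22 and 0.03 (limma adjusted p = 0.420). Srebf1 had a change of 0.02 with limits of -0.15 and 0.19. On its chosen probe set Srebf2 was among the steadiest genes of the data. Its residual SD (the spread of arrays around their group means) lay there at the 6.27th percentile of all tested genes. A further tested probe set of Srebf2, with a change of -0.15 (limma adjusted p = 0.675), lay at the 90.9th percentile, so its steadiness depends on the probe set. Insig1 and Insig2, the retention proteins, had changes of 0.05 and -0.003 (limma adjusted p = 0.868 and 0.989). Insig1, itself a SREBP target, was highest on wild type F15 (9.43) and lowest on wild type F14_2 (8.62), outside the mutant range of 8.90 to 9.18. Of the 17 tested sterol genes, 9 were highest on wild type F15 and 10 lowest on wild type F14_2, but only Pmvk, Idi1, Sqle and Sc5d were both. A shared cause was not tested.

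Fads2 had the lowest limma adjusted p of the 33 members. This gene, the first desaturase in the making of long polyunsaturated fatty acids, read 5.23, 5.20, 5.34, 5.22 and 4.76 in mutant F12, F13, F18, F19 and F20, against 5.86, 5.56, 5.64, 5.49 and 5.49 in wild type F11, F14_2, F15, F16 and F17. All 5 mutant arrays lay below all 5 wild-type arrays, with a gap of 0.15. The change was -0.46 (95% interval -0.71 to -0.21), a fold of 0.729 of mutant over wild type, and its limma adjusted p of 0.124 did not pass. A second tested probe set of Fads2 had a change of -0.52 (limma adjusted p = 0.208) with overlapping groups.

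Fads1, the desaturase that follows Fads2 in that route, lies next to it on chromosome 19 with 0 protein-coding genes between them. It read 6.81, 7.10, 7.20, 7.07 and 7.23 in the mutant, against 7.59, 7.11, 7.48, 7.40 and 7.34 in wild type. The 5 mutant arrays lay below the wild-type mean, and wild type F14_2 was the only wild-type array inside the mutant range. The change was -0.30 (95% interval -0.53 to -0.07, limma adjusted p = 0.215). Over 23 alternative settings the change of Fads1 kept its sign and lay between -0.37 and -0.17.

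Scd2 and Scd1 encode stearoyl-CoA desaturases, which make monounsaturated fatty acids, and are also close neighbours on chromosome 19, with 1 protein-coding gene between them. Scd2 read 9.77, 9.70, 9.92, 9.80 and 10.14 in the mutant, against 9.99, 9.71, 10.77, 10.12 and 10.20 in wild type. Mutant and wild type overlap, and wild type F15 stood apart at the top. The change was -0.29 (95% interval -0.67 to 0.09, limma adjusted p = 0.426) and, without wild type F15, -0.14. The other tested probe sets of Scd2 had changes of -0.36 and -0.57. Scd1 ran from 13.61 to 13.98 in the mutant and from 13.47 to 14.13 in wild type, a change of -0.07 (limma adjusted p = 0.788). Its other tested probe set spread more widely, from 10.35 to 11.43 in the mutant and from 10.01 to 12.20 in wild type. The change there was -0.26 (limma adjusted p = 0.724).

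Mlxipl had the largest upward difference of the 33 members. Its level was 7.18, 6.99, 6.85, 6.72 and 7.00 in mutant F12, F13, F18, F19 and F20, against 6.45, 5.83, 6.83, 6.69 and 6.14 in wild type F11, F14_2, F15, F16 and F17. All 5 mutant arrays lay above the wild-type mean of 6.39, while wild type F15 overlapped the mutant. The change was 0.56 (95% interval 0.17 to 0.95, limma adjusted p = 0.185). With the mean of the brown fat markers as a covariate the change was 0.16. The same covariate, whose values do not overlap between the groups, gave -0.56 for Fads2, -0.17 for Fads1 and -0.13 for Scap.

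**Figure D2:**
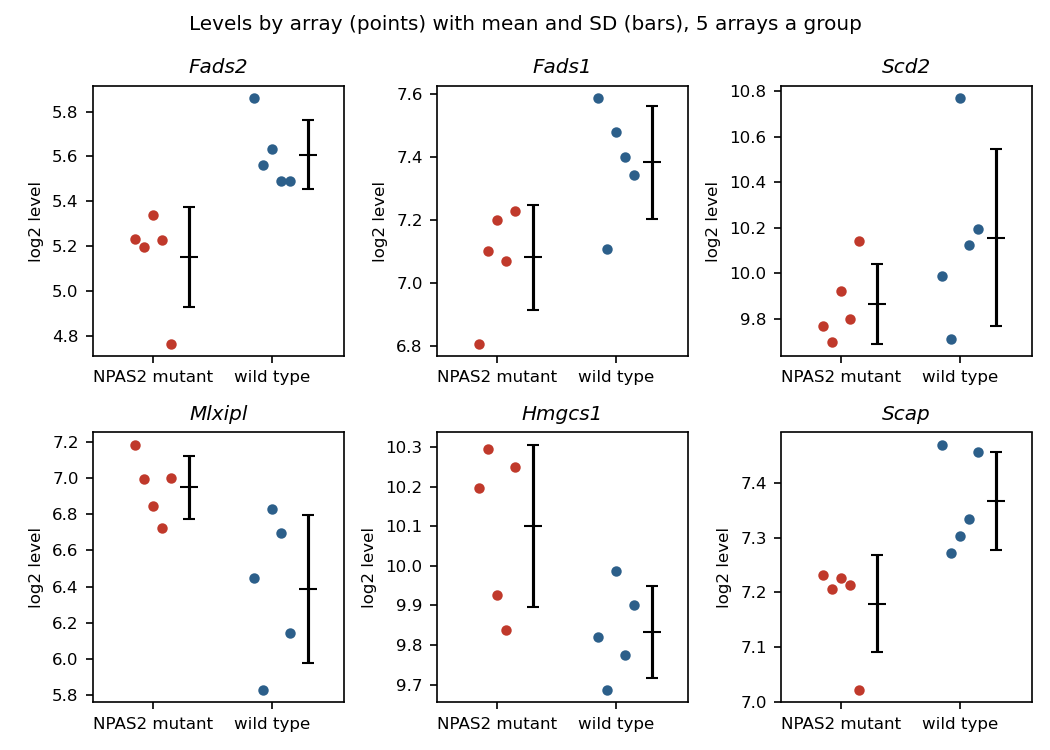
Log2 level on each array (points) of Fads2, Fads1, Scd2, Mlxipl, Hmgcs1 and Scap in NPAS2 mutant (left of each panel) and wild type (right), with the mean and SD of 5 arrays as bars; each panel has its own axis, which does not start at 0. The groups are separated for Fads2 and Scap and overlap for the other four genes.

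The lipogenic enzymes proper showed no difference of group means that stood out from their spread. Acly, which splits citrate into cytosolic acetyl-CoA, read 11.83, 11.34, 10.39, 10.28 and 10.90 in mutant F12, F13, F18, F19 and F20, against 10.96, 10.25, 12.25, 11.15 and 9.96 in wild type F11, F14_2, F15, F16 and F17. The change of Acly was 0.03, with a 95% interval of -0.91 to 0.98. Fasn, the fatty acid synthase, read 12.74, 12.35, 11.76, 11.98 and 12.18 in the mutant, against 12.35, 12.19, 13.15, 12.23 and 11.24 in wild type, a change of -0.03 (-0.70 to 0.64). Wild type F15 was the highest and wild type F17 the lowest of all 10 arrays for both genes, so that the mutant values lay wholly inside the wild-type range.

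Acaca, the carboxylase that commits acetyl-CoA to fat, had a change of 0.0005, with an interval of -0.72 to 0.72. Its level was 9.18 to 10.31 in the mutant and 8.88 to 10.89 in wild type. Acss2, which makes acetyl-CoA from acetate, had a change of -0.19 and read 8.11 to 9.26 in the mutant and 8.32 to 10.19 in wild type. Me1, the malic enzyme that supplies NADPH, had a change of -0.31 and ran from 8.79 to 9.88 in the mutant and from 9.01 to 10.80 in wild type. Thrsp, a nuclear protein induced along with lipogenic enzymes, had a change of 0.17 and ran from 12.03 to 12.79 in the mutant and from 11.85 to 12.70 in wild type. Limma adjusted p lay between 0.648 (Thrsp) and 0.999 (Acaca). Without wild type F15 the changes were -0.003 for Me1, 0.15 for Acss2, 0.37 for Acly, 0.29 for Acaca and 0.20 for Fasn, so no direction is given for them. Further probe sets differed in sign from the chosen one for Acly (-0.08 and -0.07), Acaca (-0.20) and Thrsp (-0.10). Intervals this wide leave a difference of either sign possible for each of these genes.

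These genes varied widely between arrays of the same group. The residual SD of Acly, Acaca, Fasn, Me1 and Acss2 lay between the 98.5th and 99.2th percentile of all tested genes. Within the mutant Acly spanned 1.55 log2 units, a 2.93-fold range, and within wild type 2.29 units, a 4.90-fold range. For Fasn the ranges were 1.97-fold in the mutant and 3.77-fold in wild type. The median residual SD was 0.31 over the 11 fatty acid genes, 0.25 over the 17 sterol genes and 0.12 over the 5 regulators, beside 0.16 over all tested genes. It was also high in lists described below, at 0.28 over the other genes of fatty acid and triglyceride synthesis and 0.37 over the brown fat markers, and Elovl6, a fatty acid elongase, stood at the 99.1th percentile. On the chosen probe sets, 8 of 11 fatty acid genes, 6 of 17 sterol genes (Pmvk, Idi1, Fdps, Sqle, Tm7sf2 and Dhcr7) and 0 of 5 regulators stood above the 90th percentile. Scd1 stood at the 71.1th percentile on its chosen probe set but at the 98.8th on its other. Srebf2 stood at the 6.27th on its chosen probe set and the 90.9th on its other, so the spread of a gene depends on the probe set.

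The same arrays were often at the top or the bottom. Wild type F15 was the highest of the 10 arrays in 18 of 33 members (54.5%), beside 11.8% of all tested genes, with 9 of the 17 sterol genes, 2 of the 5 regulators and 7 of the 11 fatty acid genes. For Acly, Acaca, Fasn, Me1 and Acss2 all 11 tested probe sets were highest on wild type F15, and on the mutant side all 11 were highest on F12. Counted by the single lowest array, the branches differed. Wild type F14_2 was the lowest array in 10 of the 17 sterol genes (58.8%), beside 13.6% of all genes, but in 1 of the 11 fatty acid genes. Wild type F17 was the lowest in 5 of the 11 fatty acid genes (45.5%), beside 9.64% of all genes, and in 3 of the 17 sterol genes. The fatty acid genes deviated from their 10-array mean by a median of 0.50 on mutant F12, 0.76 on wild type F15 and -0.43 on wild type F17, and the sterol genes by 0.12, 0.33 and -0.04 on the same arrays. On wild type F14_2 the median was -0.23 for the fatty acid genes and -0.28 for the sterol genes, so that array was low in both branches.

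**Figure D3:**
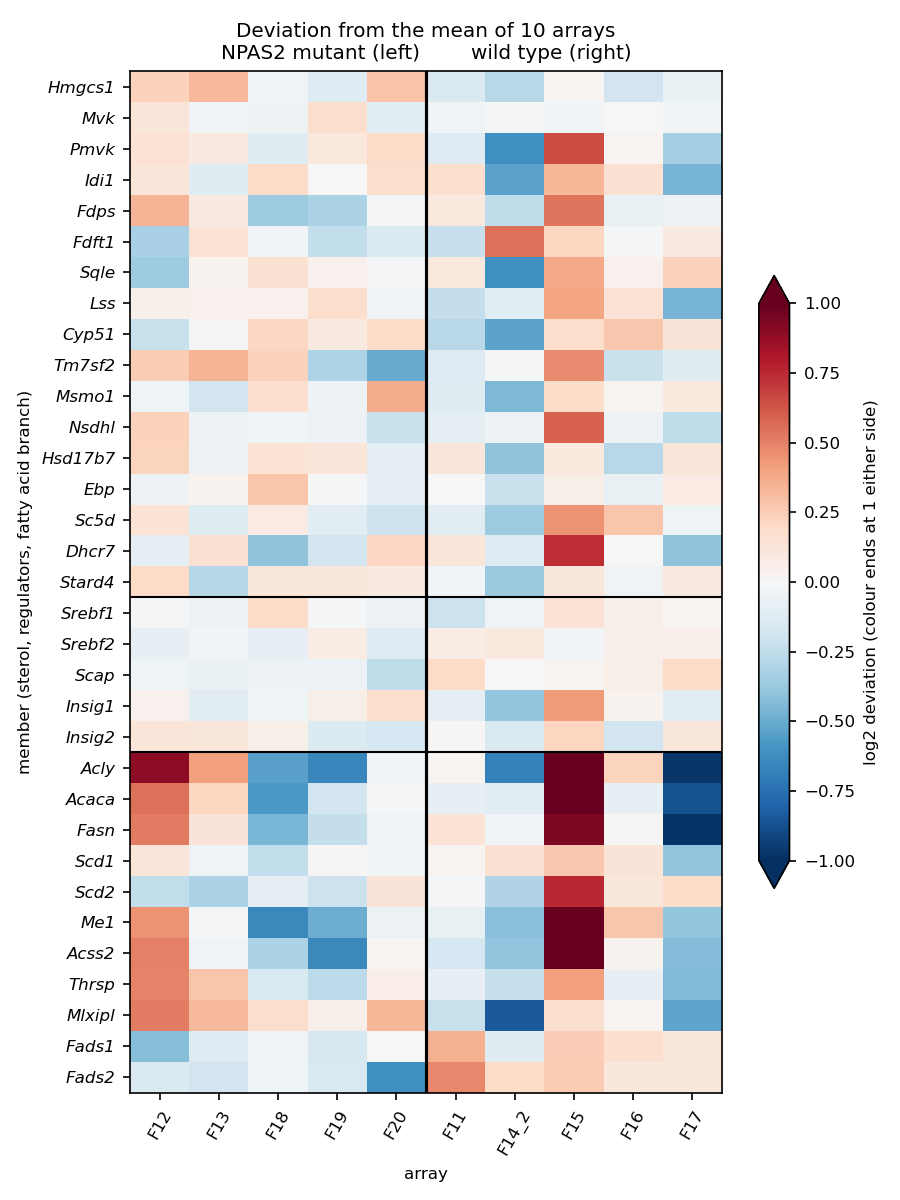
Heat map of the 33 tested members (rows, by branch) on 10 arrays (columns, NPAS2 mutant left of the line and wild type right), coloured by log2 deviation from the gene's mean over 10 arrays. Wild type F15 is red in most rows, and wild type F14_2 is blue, in part faintly, in most sterol and fatty acid rows. In the fatty acid rows mutant F12 and wild type F15 stand out as high and wild type F17 as low.

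**Figure D4:**
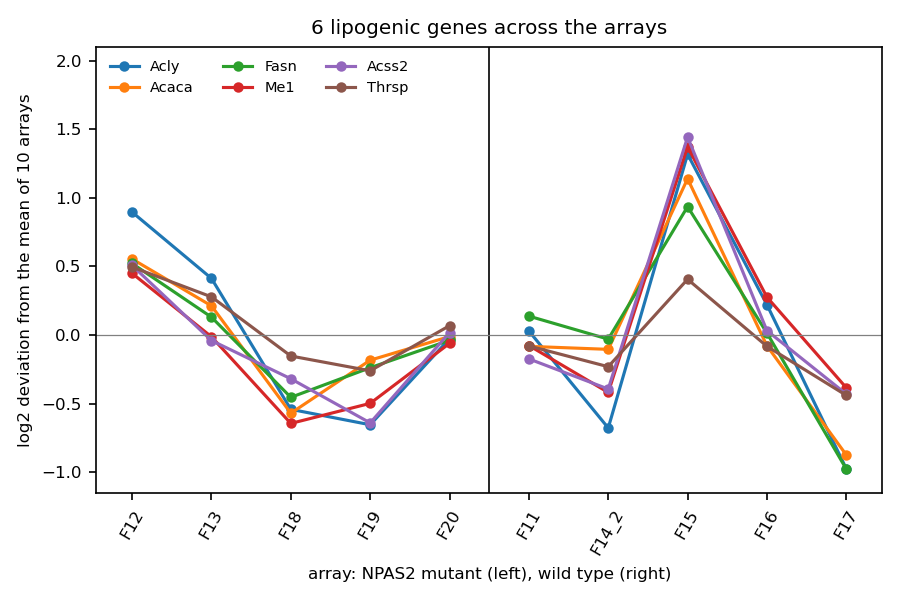
Log2 deviation from the 10-array mean of Acly, Acaca, Fasn, Me1, Acss2 and Thrsp on each array, NPAS2 mutant left of the vertical line and wild type right; lines only join points of a gene. All 6 genes lie high on mutant F12 and wild type F15 and low on mutant F18 and F19 and wild type F17. On wild type F14_2 all 6 also lie below their mean, Acaca and Fasn only slightly.

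The range was wider within wild type than within the mutant for 10 of 11 fatty acid genes, 12 of 17 sterol genes and 3 of 5 regulators (25 of 33 members), beside 45.8% of all tested genes. Arrays were few, and the arrays F15, F14_2 and F17 that set these wild-type ranges were the same for many genes. No p is given for these counts, since genes that vary together are not independent.

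Genes of the same pathways outside the list were taken from 2 further lists. Of 29 other sterol and isoprenoid genes, which covered sterol transport, SREBP cleavage and the branches to dolichol and ubiquinone, 22 were tested and 0 were called higher or lower, with 4 higher and 18 lower means in the mutant and a median change of -0.08. Nr1h3, the oxysterol receptor LXR alpha, had a level of 4.83 ± 0.26 in the mutant and 4.39 ± 0.20 in wild type (SD, n = 5 each), a change of 0.44 (limma adjusted p = 0.176). Abca1, the cholesterol exporter that LXR induces, had a level of 9.13 ± 0.07 in the mutant and 9.31 ± 0.16 in wild type, a change of -0.18 (limma adjusted p = 0.310). The median residual SD of this list was 0.12, below the 0.25 of the sterol genes described above, and wild type F15 was the highest array in 4 of the 22.

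Of 30 other genes of fatty acid and triglyceride synthesis, 26 were tested and 0 were called higher or lower. Their means were higher in the mutant for 18 and lower for 8, the median change was 0.13, and 5 passed an unadjusted limma p of 0.05, all higher in the mutant (Gpam, Elovl5, Hsd17b12, Acsl5 and Acacb), where 5.21% of all tested genes were higher and 9.83% lower. Gpam, the acyltransferase that begins glycerolipid synthesis, read 9.86, 9.43, 9.07, 9.44 and 9.36 in mutant F12, F13, F18, F19 and F20, against 8.86, 8.80, 9.06, 8.73 and 8.78 in wild type F11, F14_2, F15, F16 and F17. The groups did not overlap, as for 1.82% of tested genes with the mutant higher, and the change was 0.59 (limma adjusted p = 0.0985). Acsl5, an acyl-CoA synthetase, had a level of 8.38 ± 0.28 in the mutant and 7.83 ± 0.46 in wild type, a change of 0.55 (limma adjusted p = 0.262). The array pattern was shared in part, since mutant F12 was the highest array in 10 of the 26, wild type F15 in 7, and wild type F17 the lowest in 10.

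Most markers of fat had higher means in the mutant beside the changes above, and their part in those changes was not tested. In bulk aorta, fewer cells of a type and less RNA per cell cannot be told apart. Of 11 tested brown fat markers 10 had a higher mean in the mutant, 8 at an unadjusted limma p of 0.05, where 5.21% of all tested genes were higher, and 0 after adjustment. Their mean log2 level ran from 8.61 to 9.13 in the mutant and from 7.82 to 8.38 in wild type, without overlap. The summed level (log2 of the sum) ran from 14.02 to 14.61 in the mutant and from 13.44 to 14.14 in wild type, with overlap. Elovl3, a fatty acid elongase, was the only 1 of the 11 with separated groups, as for 1.82% of tested genes with the mutant higher. It ran from 5.99 to 7.61 in the mutant and from 2.34 to 5.82 in wild type, a change of 2.57. That was the largest change of the list, with the largest residual SD (1.06), so the separation of the mean leans on this dim marker. The 10 adipocyte markers had mean levels of 10.37 to 10.82 in the mutant and 10.37 to 10.59 in wild type, with 9 higher means in the mutant, 2 of them at an unadjusted limma p of 0.05. The exception was Lep, the hormone leptin, which had the largest change of that list, at 5.48 ± 0.45 in the mutant and 6.26 ± 0.31 in wild type (SD, n = 5 each), a change of -0.78 (limma adjusted p = 0.155). Prdm16, a factor that sets brown fat identity, was the brown fat marker with a lower mean in the mutant (change -0.27). The summed level of the adipocyte markers ran from 15.91 to 16.05 in the mutant and from 15.84 to 15.98 in wild type, and the brightest were Fabp4 and Car3. Cidea and Cox8b were the brightest brown fat markers, and Zic1 was too dim to test.

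The array order of the lipogenic genes was matched only in part by these markers. Wild type F17, low for Acly, Acaca and Fasn, had the lowest brown fat mean (7.82), and mutant F12, high for them, the highest (9.13). By summed brown fat level these arrays were also the lowest (13.44) and the highest (14.61). Wild type F15, where these genes peaked, had a brown fat mean of 8.38 against 7.82 to 8.34 on the other wild-type arrays, and an adipocyte mean of 10.55 within the wild-type range. By summed brown fat level wild type F15 (13.77) lay below wild type F14_2 (14.14) and F11 (13.97). Skeletal muscle markers, led by Acta1 and Myl1, varied far more, from 3.59 to 11.1 in the mutant and from 3.56 to 9.98 in wild type in mean level (7.91 to 15.4 in the mutant and 7.74 to 14.7 in wild type as log2 of the sum), with 5.83 on wild type F15. With the brown fat mean as a covariate, whose values do not overlap between the groups, the median change of the fatty acid genes was -0.59 and that of the sterol genes -0.12, and 0 members were called. That covariate leans on Elovl3 as the mean does.

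**Figure D5:**
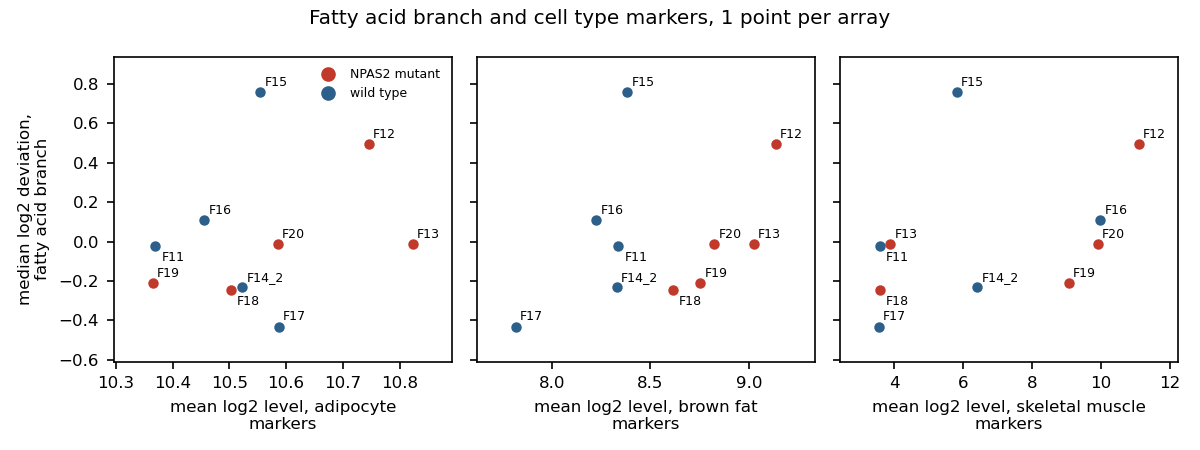
Median log2 deviation of the 11 fatty acid genes on each array (vertical axis) against the mean log2 level of adipocyte, brown fat and skeletal muscle markers (horizontal axes), 1 point per array, NPAS2 mutant and wild type by colour. Wild type F15 lies highest at middling marker levels, and on the brown fat axis all 5 mutant arrays lie right of all 5 wild-type arrays. The brown fat mean includes Elovl3, the marker with the largest change of that list.

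Of the remaining marker lists, smooth muscle had 8 of 9 means lower in the mutant (mean levels 11.2 to 11.5 in the mutant and 11.4 to 11.6 in wild type), macrophage had 5 of 5 higher (6.82 to 7.34 in the mutant and 6.63 to 6.85 in wild type), and endothelial 5 of 7 higher (6.18 to 6.43 in the mutant and 6.19 to 6.35 in wild type). The summed levels (log2 of the sum) were 15.84 to 16.02 in the mutant and 15.90 to 16.12 in wild type for smooth muscle. They were 10.2 to 10.8 in the mutant and 10.05 to 10.3 in wild type for macrophage, and 9.87 to 10.1 in the mutant and 9.90 to 10.1 in wild type for endothelial markers, whose brightest members were Vwf and Pecam1. Lyz2 and Csf1r were the brightest macrophage markers. At an unadjusted limma p of 0.05, 5 smooth muscle markers were lower in the mutant, 3 macrophage markers higher and 1 endothelial marker lower, beside 9.83% of all tested genes lower and 5.21% higher, and 2 smooth muscle markers and 1 endothelial marker had groups without overlap, the mutant lower, beside 2.39% of tested genes. None of these markers was called.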

How the data were processed

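Total RNA from aorta was labelled with biotin and hybridised to 1 array per sample, 5 per group. The authors deposited log2 expression values, 1 per probe set and array, and per the submitters' processing notes GCRMA and MAS5 were used, with neither version nor role stated. The log2 scale of the deposited values was inferred from their span, which ran from 1.10 to 14.7. Array depth does not apply, and the number of arrays limits precision. The sources used here give no scan or hybridisation batch.

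Of 45101 probe sets, 64 were controls, 34958 carried 1 gene in the platform's annotation, 932 several and 9160 none. Symbols were updated to GRCm38.p6 names, and 1 probe set that names Acss2 and another gene was left out. Probe sets were tested where 5 or more of the 10 arrays read above that array's median (22340, representing 10943 genes by the brightest probe set). The fit was limma 3.58.1 in R 4.3.3 (lmFit and eBayes), mutant minus wild type, two-sided, and p-values were adjusted by Benjamini-Hochberg across the 22340 probe sets. It was tested on simulated data. The text names every member, the called genes of each further list or else its 2 largest changes at an unadjusted p of 0.05, the 2 brightest genes of each marker list, Ucp1 and Adipoq, and further probe sets that differ from the chosen one. Elovl3, Elovl5, Elovl6, Hsd17b12, Acacb, Lep, Prdm16, Npas2 and Zic1 are named outside that rule, after their values were seen. The members and lists were chosen with earlier results of these data known.

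Alternatives covered the filter, normalisation, variance model, a one-way analysis of variance as the series design names it, probe set choice, marker covariates and leaving out each array.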

Additional observations from a re-analysis of the deposited data

Results flagged for a closer look

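Each group of 5 arrays was checked, for every tested member, for an array whose gap to the nearest other exceeds 0.71 of the group's range. This held in 6 of 66 groups, where chance flags about 1 in 20 independent groups. Genes that vary together on the same arrays are not independent, so no excess is read from this count. In the mutant, F20 was apart at the low end for Scap (7.02, next 7.21, gap 0.879 of the range) and for Fads2 (4.76, next 5.20, gap 0.752), the members whose groups did not overlap. Without mutant F20 the changes were -0.15 for Scap and -0.36 for Fads2, with limma adjusted p of 0.382 and 0.184. Stard4 was low on mutant F13 (4.64, next 5.02, gap 0.762), and Srebf1 was high on mutant F18 (9.26, next 9.06, gap 0.795). In wild type, F15 was apart at the high end for Acss2 (10.2, next 8.78, gap 0.753) and Nsdhl (7.36, next 6.72, gap 0.761). The causes were not tested.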

How the results depend on the processing

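The count of members called was 0 under all alternatives run, and the lowest adjusted p of any member in any of them was 0.0921 (Fads2). The 48 probe sets called over the whole table became 17 with no filter, 141 with only probe sets above the 75th percentile, 13 by one-way analysis of variance, and 9, 1 and 7 with the adipocyte, brown fat and skeletal muscle marker means as covariates. An adjusted p of 0.1 called 191, and leaving out 1 array gave 9 to 43. Without F11 or F14_2 of wild type the count was 34 and 43, and without any other single array 9 to 23. Counts depend on tested number and array number by construction, and other causes were not tested. The regulator median was -0.065 with the adipocyte covariate, and the sterol and fatty acid medians were -0.12 and -0.59 with the brown fat covariate. Leaving out 1 array gave sterol medians of 0.002 (without wild type F14_2) to 0.12 (without wild type F15) and regulator medians of -0.05 to 0.05. Of 747 member values recomputed over 23 alternatives, 727 stayed within 1 SD and 20 moved further. Of 33 members 21 changed sign in some alternative, but 0 of the 5 with an unadjusted p under 0.05. No paired analysis was possible because the groups share no replicate numbers. Centring shifted the median change of all tested probe sets from -0.03 to between -0.05 and 0.03. Dim genes such as Mvd are limited by signal over background.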
